A study of Mus musculus with 6 samples.

Results

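Reelin, its receptors Vldlr and Lrp8, and the adaptor Dab1 were followed through lens RNA of wild-type mice and of mice homozygous for the Y162C change in fibroblast growth factor 9. These genes were chosen by the fall of Reln in the same comparison, and Vldlr, Lrp8 and Dab1 were added as its known partners, so their differences between genotypes are given as a description with no test. By symbol in the platform annotation, 3 of these 4 genes were found among 16593 named genes, with 9 of 25697 probes. Reln had 1 probe, Vldlr 5 and Dab1 3, and 0 of the probes used here carry the symbol Lrp8, so Lrp8 was not analysed here.

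Lens RNA came from 3 wild-type and 3 homozygous Fgf9 Y162C mice, and each mouse was measured on 1 Illumina BeadChip array. Per the labels, all mice were 18 weeks old and of strain C57BL/6J. The wild-type group is labelled as 1 female and 2 males, and the homozygous group as 2 females and 1 male. The labels do not say how the lens was freed from the neighbouring tissue. In bulk RNA, fewer cells of a type and less RNA per cell cannot be told apart.

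Reelin is a large glycoprotein secreted into the extracellular matrix. It binds the lipoprotein receptors Vldlr and Lrp8 (also called ApoER2), whose cytoplasmic tails hold Dab1, and Src-family kinases then phosphorylate Dab1. The pathway is best known for placing migrating neurons in the brain, and in the eye reelin is known from neurons of the inner retina.

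The mean deposited signal per array was 191 to 200.4 in the wild type and 161.6 to 165.7 in the homozygotes, and the number of probes above background was 8713 to 9671 and 7816 to 8396. A pair of wild-type arrays stood apart. On wild type replicate 2 the summed level of 20 photoreceptor markers was 14555, against 2377 to 4998 on the other 5 arrays. Wild type replicate 3 is labelled male, but both Xist probes were above background on it (signals 149.7 and 128.3) and Y-linked Eif2s3y was not (75.7). The lens fibre markers were as the label says: 10 of 11 fibre and crystallin markers were above background on every array, with Gja3 on 0. Of 7 epithelium markers, 4 to 5 were above background per array. Among the rest, Pax6 and Npnt were above background on 0 arrays, and Foxe3 on too few to be tested.

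The promoter windows of Reln and Vldlr are shown because Reln is the member whose groups lay far apart and Vldlr is the receptor measured here. They come from RefSeq (build GRCm38.p6), run 5′ to 3′ over 300 bases around an annotated start, and carry in capitals each GC box, the letters GGGCGG on either strand. All 4 genes had at least 1 such window, and the windows of Lrp8 and Dab1 are not shown. The Reln window is chr5:22344656-22344955 on the minus strand, and the Vldlr windows are chr19:27216234-27216533 and chr19:27216770-27217069 on the plus strand.
Reln: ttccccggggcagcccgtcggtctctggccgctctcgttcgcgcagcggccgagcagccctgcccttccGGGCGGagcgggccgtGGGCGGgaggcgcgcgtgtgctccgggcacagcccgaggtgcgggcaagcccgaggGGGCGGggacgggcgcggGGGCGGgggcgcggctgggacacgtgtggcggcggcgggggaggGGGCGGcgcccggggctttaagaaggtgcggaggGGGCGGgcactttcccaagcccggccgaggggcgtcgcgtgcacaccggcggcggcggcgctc
Vldlr, upstream start: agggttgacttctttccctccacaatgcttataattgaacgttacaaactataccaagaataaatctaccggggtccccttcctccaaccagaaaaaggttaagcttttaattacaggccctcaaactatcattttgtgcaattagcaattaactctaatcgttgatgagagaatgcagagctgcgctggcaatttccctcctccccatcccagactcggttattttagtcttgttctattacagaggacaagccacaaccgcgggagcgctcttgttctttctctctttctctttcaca
Vldlr, downstream start: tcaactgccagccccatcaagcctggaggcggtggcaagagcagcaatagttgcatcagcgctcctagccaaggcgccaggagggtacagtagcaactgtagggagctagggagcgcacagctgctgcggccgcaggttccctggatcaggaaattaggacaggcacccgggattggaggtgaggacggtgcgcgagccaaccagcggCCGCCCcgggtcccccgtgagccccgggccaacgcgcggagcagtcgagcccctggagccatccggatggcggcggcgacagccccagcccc

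The Reln window held 6 GC boxes, 47 CG pairs and 80.7% G and C. The upstream Vldlr window held 0 GC boxes and 8 CG pairs, and the downstream one 1 GC box and 23 CG pairs. Among 32851 promoter windows of the same length, 35.7% held at least 1 GC box and 1.35% held 6 or more, and the median was 7 CG pairs. TATAA, on either strand, was in 0 places of the Reln window and in 1 stretch of the upstream Vldlr window, which matches on both strands, and 24.9% of all windows held it. A match describes the letters of the window, and these arrays do not measure binding or methylation there.

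Reln, the ligand, was bright in all wild-type lenses and near background in all homozygous lenses. Its deposited signal (linear intensity, not background-subtracted) read 298.5, 262.5 and 463.5 in the wild-type lenses, in the order of replicates 1 to 3, against 90.8, 98.9 and 96.5 in the mutant ones. The groups did not overlap, and the lowest wild-type value lay far above the highest homozygous value.

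The level that negative control beads reach, read as the median signal of probes with a detection p-value of 0.45 to 0.55, lay at 85.9, 86.3 and 86.3 for wild-type replicates 1 to 3 and at 87.3, 81.5 and 79.7 for homozygous replicates 1 to 3. Above that level, Reln stood at 212.6, 176.2 and 377.2 in the wild type and at 3.5, 17.4 and 16.8 in the homozygotes, means of 255.3 and 12.6. Reln thus passed detection (p-value under 0.05) in all 3 wild-type lenses and in 2 of the 3 homozygous ones. The exception was homozygous replicate 1, with a detection p-value of 0.316, while replicates 2 and 3 had 0.00877 and 0.01.

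After background correction and quantile normalization wild-type lenses had a Reln log2 value of 7.80 ± 0.62 and homozygous lenses one of 4.96 ± 0.37 (mean ± SD, n = 3 mice each). The log2 difference, homozygous minus wild type, was -2.84 (SE 0.29), a 7.18-fold lower value, and by size this was rank 1 of the falls among 6430 tested genes. Reln was 1 of the 21 genes lower at a limma adjusted p under 0.05, which is 0.327% of the tested genes, and nothing is read from that share because the gene was picked from this comparison. Complete separation downward, all 3 homozygous arrays below all 3 wild-type arrays, held for 7.47% of the 8618 tested probes. The size of the Reln difference moved with the treatment of background: it was -1.58 with none, -1.98 with an offset of 50 and -3.47 with the authors' processed values, where 0 of 6430 genes passed at an adjusted p under 0.05 in limma (573 at an unadjusted p under 0.05) and Reln was thus not called. Leaving out single arrays gave -3.09 to -2.49.

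Within the wild type, Reln was not even. Replicate 3 was highest (log2 8.46), then replicate 1 (7.71) and replicate 2 (7.24). The 3 homozygous arrays were at 4.53, 5.17 and 5.17.

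**Figure D1:**
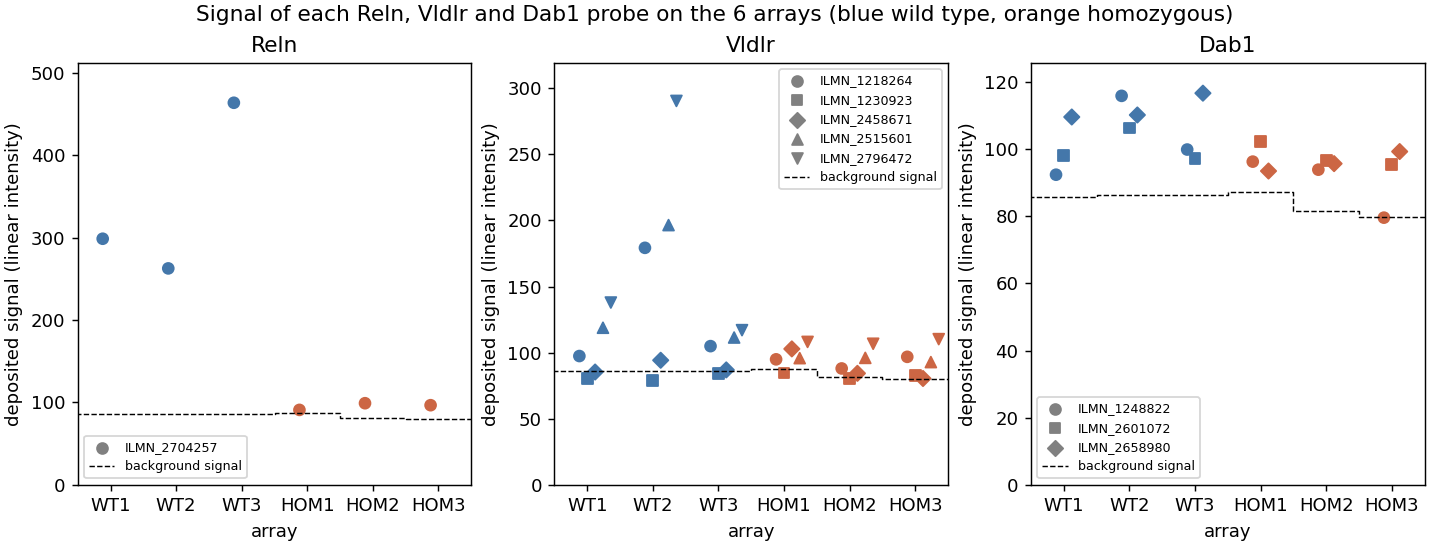
Deposited signal (linear intensity) of the 9 probes of Reln, Vldlr and Dab1 on each array, WT for wild type and HOM for homozygous, with a symbol per probe and a dashed line at the background signal of the array. Reln lies between 262.5 and 463.5 on the wild-type arrays and between 90.8 and 98.9 on the homozygous arrays, Vldlr is highest on wild type replicate 2, and Dab1 stays between 79.6 and 116.7.

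Vldlr, the very-low-density lipoprotein receptor, was high on 1 wild-type array, and on its brightest probe the groups overlapped after normalization. That probe, ILMN_2796472, was above background on all 6 arrays, with signals of 137.9, 290.5 and 117 in the wild type and 108.1, 106.7 and 110.2 in the homozygotes. Wild type replicate 2 had the highest value by a wide margin. The deposited signals did not overlap between the groups, while in normalized values wild type replicate 3 (log2 5.42) lay below homozygous replicates 2 and 3 (5.51 and 5.73). Mean deposited signals were lower on every homozygous array (161.6 to 165.7 against 191 to 200.4), which favours separation downward in deposited signals. The share of all probes that separate in deposited signals was not counted. The log2 values were 6.29 ± 1.04 and 5.54 ± 0.18 (SD, n = 3 each), a log2 difference of -0.75 (SE 0.39), and of -0.17 (SE 0.22) without wild type replicate 2.

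The other Vldlr probes repeat this array order only in part. Probe ILMN_2515601 had signals of 118.8, 196.5 and 111.4 in the wild type and 95.8, 96 and 92.8 in the homozygotes. Its groups did not overlap, also in normalized values, where 7.47% of tested probes separated downward. Its log2 difference was -0.89 (SE 0.30), or -0.46 without wild type replicate 2. Probe ILMN_1218264 had signals of 97.4, 179.3 and 104.9 against 94.9, 88 and 96.8. These deposited signals did not overlap, by a narrow margin (97.4 against 96.8), but the normalized values did, with homozygous replicate 3 (log2 5.19) above wild type replicates 1 and 3 (4.80 and 5.03). Its log2 difference was -0.56 (SE 0.34), or -0.07 without wild type replicate 2.

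All 3 tested Vldlr probes were thus highest on wild type replicate 2, and their differences shrank without it. On that array photoreceptor, inner retina, glial and pigment cell markers also had their highest mean log2 value. The part of those markers in the Vldlr values was not tested. The remaining 2 probes stayed near background: ILMN_1230923 passed detection on 0 arrays (signals 79.1 to 84.5), and ILMN_2458671 on 1, homozygous replicate 1 (80.4 to 102.8). The probes of 1 gene share its RNA and are not replicates.

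Dab1, the cytoplasmic adaptor, was dim everywhere and its 3 probes did not give 1 direction. The brightest, ILMN_2658980, had signals of 109.6, 110.2 and 116.7 in the wild type and 93.5, 95.7 and 99.3 in the homozygotes. In these deposited signals, whose array means were lower in all homozygotes, the groups did not overlap. After normalization homozygous replicate 3 (log2 5.31) lay above wild type replicates 1 and 2 (5.26 and 5.09). The log2 difference was -0.27 (SE 0.20), and -0.04 with median scaling.

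A second Dab1 probe, ILMN_2601072, passed detection on all 6 arrays, with signals of 98.1, 106.3 and 97.3 in the wild type and 102.2, 96.6 and 95.4 in the homozygotes. The deposited signals overlapped, while the normalized values were all higher in the homozygotes (4.85 ± 0.11 and 5.08 ± 0.03, SD, n = 3 each; log2 difference 0.23, SE 0.16). Complete separation upward held for 7.31% of tested probes. The third probe, ILMN_1248822, passed detection on 3 arrays and had a log2 difference of -0.20 (SE 0.20), which became 0.09 with median scaling. Averaged over the 3 probes, the Dab1 difference was -0.08.

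**Figure D2:**
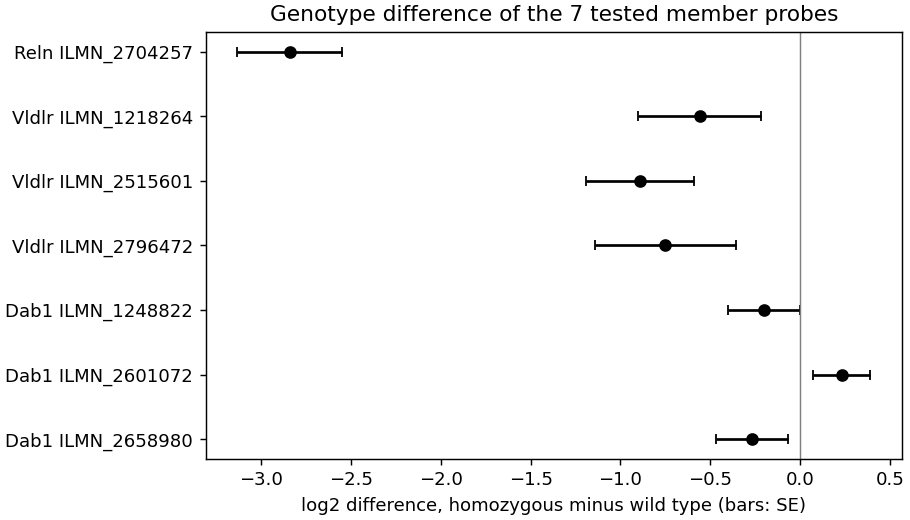
Log2 difference, homozygous minus wild type, of the 7 tested probes of Reln, Vldlr and Dab1, with bars for the SE of the fit. Reln stands at -2.84, the Vldlr probes between -0.89 and -0.56, and the Dab1 probes on both sides of 0.

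Downstream of the receptors, 0 of the 32 tested genes of reelin signalling passed the limma test in either direction, and 4 had an unadjusted p under 0.05. Over all tested genes, 588 of 6430 (9.14%) had an unadjusted p under 0.05, and the counts at that p in this and the following lists are to be read against that share. The list held 50 genes, of which 46 had a probe. Its median log2 difference was -0.03, against 0 over all tested genes, of which 0.327% passed as lower and 0.109% as higher. Among the kinases that phosphorylate Dab1, Src was at -0.37 and Fyn at 0.12 (limma adjusted p = 0.613 and 0.874). Crk, an adaptor that binds phosphorylated Dab1, was at -0.30, and the small GTPase gene Rap1b at -0.13 (limma adjusted p = 0.584 and 0.806).

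The other branches held no call either. Of the kinases that follow PI3K, Mtor was at 0.28, and the PI3K regulatory subunit gene Pik3r1 was at 0.20 (limma adjusted p = 0.714 and 0.788). Pafah1b1, the lissencephaly gene whose product binds dynein regulators, was at -0.18, and its partner Pafah1b3 at -0.08 (limma adjusted p = 0.806 and 0.917). Socs6, of the family that feeds substrates to Cullin-5 ligases, was at 0.33 and Ube2f, of the same branch, at -0.05 (limma adjusted p = 0.654 and 0.939). Cdk5, a kinase of neuronal migration, was at -0.33 and its activator Cdk5r1 at -0.66 (limma adjusted p = 0.651 and 0.479).

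Cdk5r1 followed the Vldlr pattern of a high second wild-type array, with signals of 111.2, 172.7 and 108.1 in the wild type and 101, 95.4 and 88.8 in the homozygotes. Among surface proteins reported to work with reelin or its receptors, Nrp1, a semaphorin and VEGF co-receptor, had signals of 99.7, 101.3 and 102.9 in the wild type and 78.7, 84.3 and 77.8 in the homozygotes. All 3 wild-type arrays and 0 of the homozygous ones passed detection, so the difference is at least 1.03-fold (limma adjusted p = 0.281). The fold bound sets the wild-type mean against the lowest detected level on each homozygous array. Aplp1, a relative of the amyloid precursor protein, was at 0.50, and the adhesion gene Nectin3 at -0.44 (limma adjusted p = 0.416 and 0.456).

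Other ligands and regulators of the receptors had 0 of 7 tested members passing, with 2 at an unadjusted p under 0.05 (9.14% of all tested genes) and a median of 0.17. Apoe, the apolipoprotein that both receptors also bind, lay farthest from 0 among all 49 tested pathway genes. Its signals were 214.3, 139.1 and 304.1 in the wild type and 91.9, 103.6 and 87.5 in the homozygotes. The groups did not overlap, and in normalized values 7.47% of tested probes separated downward in this way. The order of the wild-type arrays, replicate 3 above 1 above 2, was that of Reln. The log2 difference of Apoe was -1.96 (SE 0.40) at a limma adjusted p of 0.0739, and it passed detection on 1 of 3 homozygous arrays. Apoe passed the test without wild type replicate 2, with no filter on dim probes and with a replicate block, so the count of this list depends on those settings. Lrpap1, the chaperone of LDL receptor family proteins, was at 0.28 (limma adjusted p = 0.484).

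Of the LDL receptor family, 12 of 14 listed genes had a probe, 4 were tested, 0 passed and 1 had an unadjusted p under 0.05 (9.14% of all tested genes). Lrp10, a less studied member of the family, had signals of 693.3, 637.2 and 600.3 in the wild type and 526.6, 590 and 666.6 in the homozygotes, which overlap. Its normalized log2 values were higher in all homozygotes (log2 difference 0.35, limma adjusted p = 0.442), and the order of the groups thus differs between deposited and normalized values. Lrp6, a Wnt co-receptor, was also at 0.35 (limma adjusted p = 0.64) and passed detection on 1 wild-type and 2 homozygous arrays.

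Proteases reported to cut reelin had 2 tested genes of 10 listed, 0 passing and 0 at an unadjusted p under 0.05. Adamts4 was at -0.32 and the proprotein convertase gene Furin at -0.01 (limma adjusted p = 0.708 and 0.995). Of the adaptors that share the phosphotyrosine-binding domain of Dab1, 4 of 10 were tested, 0 passed and 0 had an unadjusted p under 0.05. Apba3 was at -0.21 and Apbb1 at -0.16 (limma adjusted p = 0.768 and 0.801). The filter on dim probes left out 35 of the 84 pathway genes with a probe, and for them no difference is given.

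**Figure D3:**
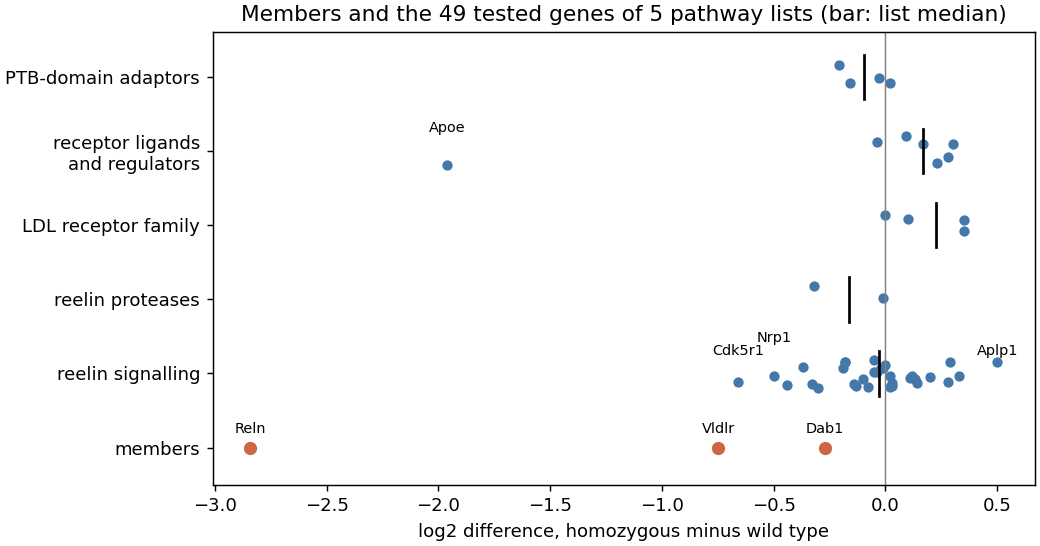
Log2 difference, homozygous minus wild type, of the brightest tested probe of Reln, Vldlr and Dab1 (orange) and of the 49 tested genes in 5 pathway lists (blue), with a bar at the median of each list. Apoe at -1.96 lies apart from the other pathway genes, which lie between -0.66 and 0.50.

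The genes whose values over the 6 arrays were most like those of Reln were, in order, Slc6a9, Pde10a, Agrn, Slc6a6, Gchfr, Gldc, Rp9, Lamp3, Nrp1 and Minar2. Likeness is Pearson's r of log2 values over the 6 arrays, and among these 10 genes of 6426 it was 0.981 to 0.993. Since Reln separates the groups, r mostly measures a gap between genotypes and is a description. In all 10, every homozygous value lay below every wild-type value, as for 7.47% of tested probes, and wild type replicate 3 was highest. Reln has both traits, so a choice of genes by r favours them.

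These genes differed widely in the size of their gap. Minar2 had a log2 difference of -2.43, the glycine transporter gene Slc6a9 of -1.65 and the glycine cleavage gene Gldc of -1.63. Slc6a6, which encodes the taurine transporter, had signals of 943.4, 1104.9 and 1301.1 in the wild type and 325.3, 424.9 and 383.8 in the homozygotes, far above background in both groups (log2 difference -1.26). Pde10a, a cyclic nucleotide phosphodiesterase, was at -0.76 and Agrn, the proteoglycan agrin, at -0.75. Rp9 was at -0.28. Gchfr, Lamp3 and Nrp1 passed detection on 0 homozygous arrays and lay close to background in the wild type too. At the other end, Med7, Armh1 and Pdcd7 had r of -0.984, -0.984 and -0.985.

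**Figure D4:**
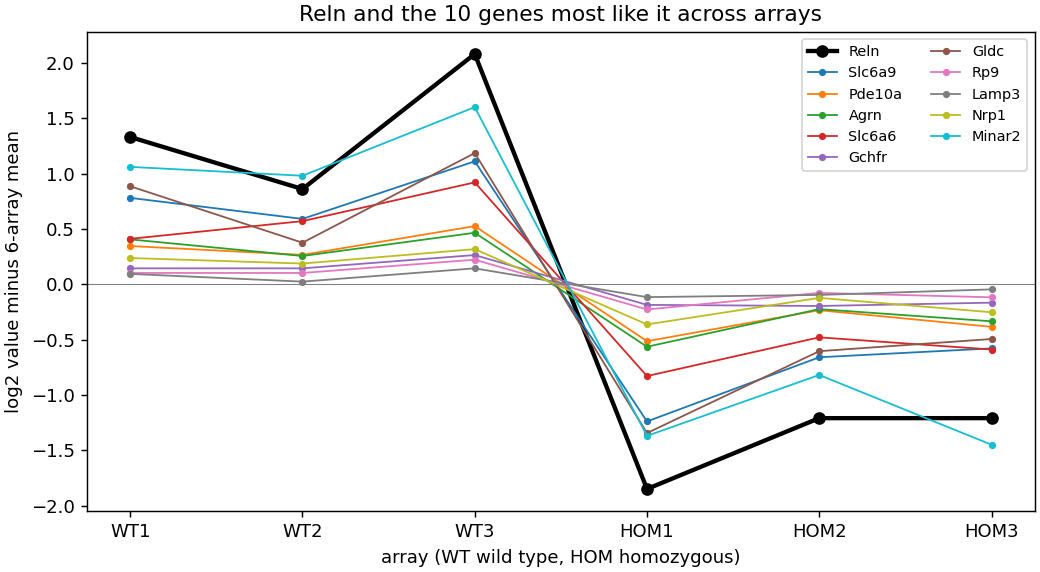
Log2 value minus its mean over the 6 arrays for Reln (thick black line) and the 10 genes most like it, WT for wild type and HOM for homozygous. Each line is above 0 on the wild-type arrays, highest on wild type replicate 3, and below 0 on the homozygous arrays.

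Markers of some tissues around the lens also had lower summed levels in the homozygotes, and others overlapped between the groups. For 22 inner retina markers, a tissue in which reelin is known, the summed normalized level was 479 to 864 in the wild type and 183 to 213 in the homozygotes, and 8 to 12 against 3 to 5 of them passed detection. Of 9 tested, 4 fell, against 0.327% of all tested genes, and 0 rose. These 4 were Calb2 (log2 difference -2.34, SE 0.23), Slc6a9, Sncg (-1.39) and Slc17a6, lower by a factor of at least 2.07 (limma adjusted p = 0.00102, 0.00566, 0.00757 and 0.0386). The marker lists were chosen with earlier results of these data known. Nothing is thus read from the share of markers that fell or rose, here or in the marker lists below. The median log2 difference of the tested markers was -1.39 (-1.05 with genes undetected in 1 group at their bound). A marker could enter the test by detection on the wild-type arrays alone, as Slc17a6 did, so this median can overstate the fall of the list. Over all 22 markers, tested or not, the mean log2 deviation from the mean of all arrays was 0.1, 0.52 and 0.18 in wild-type replicates 1 to 3. In the homozygotes it was -0.29, -0.23 and -0.27. Calb1, Gad2, Slc18a3, Nefl, Nefh, Pou4f1, Snap25, Gap43 and Elavl4 passed detection on 0 arrays. As a list, inner retina markers were highest on wild type replicate 2, whereas Reln was lowest there among the wild type. Slc6a9, a marker of this list and the gene most like Reln, had the order of Reln in normalized values. It was at log2 6.72, 6.53 and 7.05 in wild-type replicates 1 to 3.

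Ciliary epithelium and macrophage markers had the order of Reln among the wild-type arrays by mean deviation, and macrophage markers also by summed level. For 6 ciliary markers, 4 of which passed detection on some array, the mean log2 deviation from the 6-array mean was 0.22, 0.15 and 0.52 in the wild type and -0.32, -0.23 and -0.35 in the homozygotes. Their summed level was 115, 151 and 186 in wild-type replicates 1 to 3, another order for replicates 1 and 2, and 36 to 51 in the homozygotes. Zic2 and Slc4a4 passed detection on 0 arrays, and of 2 tested members 0 passed the test. Wfdc1, one of the tested members, had signals of 136.8, 105 and 183.1 in the wild type and 95.4, 84 and 79.4 in the homozygotes. Atp1b2, the other, had another order, with 100.6, 236.1 and 122.8 in the wild type and 95.3, 102 and 84.4 in the homozygotes.

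Macrophage and leukocyte markers, a source of Apoe transcripts in many tissues, summed to 144 to 261 over 11 genes in the wild type and to 95 to 121 in the homozygotes. In wild-type replicates 1 to 3 the sum was 230, 144 and 261, and the mean log2 deviation was 0.23, -0.04 and 0.32, against -0.22, -0.10 and -0.18 in the homozygotes. Of 5 tested, 1 fell, against 0.327% of all tested genes. This was Laptm5, lower by a factor of at least 1.81 (limma adjusted p = 0.0113), which passed detection on 3 wild-type and 0 homozygous arrays. Tyrobp, C1qa, Ptprc and Cx3cr1 passed detection on 0 arrays.

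Markers of glia summed to 3466 to 4201 over 8 genes in the wild type and to 3033 to 4144 in the homozygotes. Of 4 tested 1 fell, against 0.327% of all tested genes. This was Slc1a3 (log2 difference -1.98, limma adjusted p = 0.00244), which passed detection on 3 wild-type arrays and 1 homozygous array. The summed level came mostly from Dkk3, with deposited signals of 3528.3 to 4292.6 in the wild type and 2335.5 to 3129.7 in the homozygotes and a normalized log2 difference of -0.10 (limma adjusted p = 0.86). The mean log2 deviation of the list did not overlap, at 0.06, 0.56 and 0.13 in the wild type and -0.35, -0.24 and -0.16 in the homozygotes, and all 4 tested members were below 0. Glul and S100b passed detection on 0 arrays. Photoreceptor markers had 0 of 16 tested passing, with Opn1sw and Rp1 above background on 0 arrays. Of these 16, 15 had a log2 difference at or below 0, where 50% of all tested genes lay below 0. Pigment cell markers had 0 of 9 tested passing and 5 at an unadjusted p under 0.05 in limma (9.14% of all tested genes). The 13 with a probe summed to 387 to 1939 in the wild type and 180 to 350 in the homozygotes. Tyr, Lrat and Gpr143 passed detection on 0 arrays.

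Endothelial markers, of interest because lymphatic endothelium can express Reln, summed to 692 to 1115 over 13 genes in the wild type and to 728 to 952 in the homozygotes. This sum came mostly from Pdpn, with deposited signals of 760.9 to 1280.2 in the wild type and 609.7 to 769.2 in the homozygotes. Its normalized log2 difference was 0.01 (limma adjusted p = 0.992). Of 2 tested endothelial markers, 0 passed, and 7 of the 13 passed detection on 0 arrays, Pecam1, Cdh5, Tek, Tie1, Vwf, Emcn and Eng. Fibre and crystallin markers summed to 129131 to 129521 in the wild type and 131983 to 139014 in the homozygotes, with 0 of 10 tested passing. Epithelium markers summed to 1754 to 2189 and 3157 to 3696, and of 4 tested 1 rose, against 0.109% of all tested genes. This was the water channel gene Aqp1 (log2 difference 1.30, limma adjusted p = 0.00343). Aqp1 made up a large part of the sum, with deposited signals of 864.2 to 1281.7 in the wild type and 1609.6 to 1996 in the homozygotes.

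The part of inner retina, ciliary, macrophage, glial, pigment cell and photoreceptor transcripts in the Reln difference was not tested. Without wild type replicate 2, where retinal and pigment markers were highest, the log2 difference of Reln was -3.09 (SE 0.25). The inner retina sums of wild-type replicates 1 and 3, 479 and 557, still lay above the 183 to 213 of the homozygotes. Leaving out that array is thus no test of that part.

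**Figure D5:**
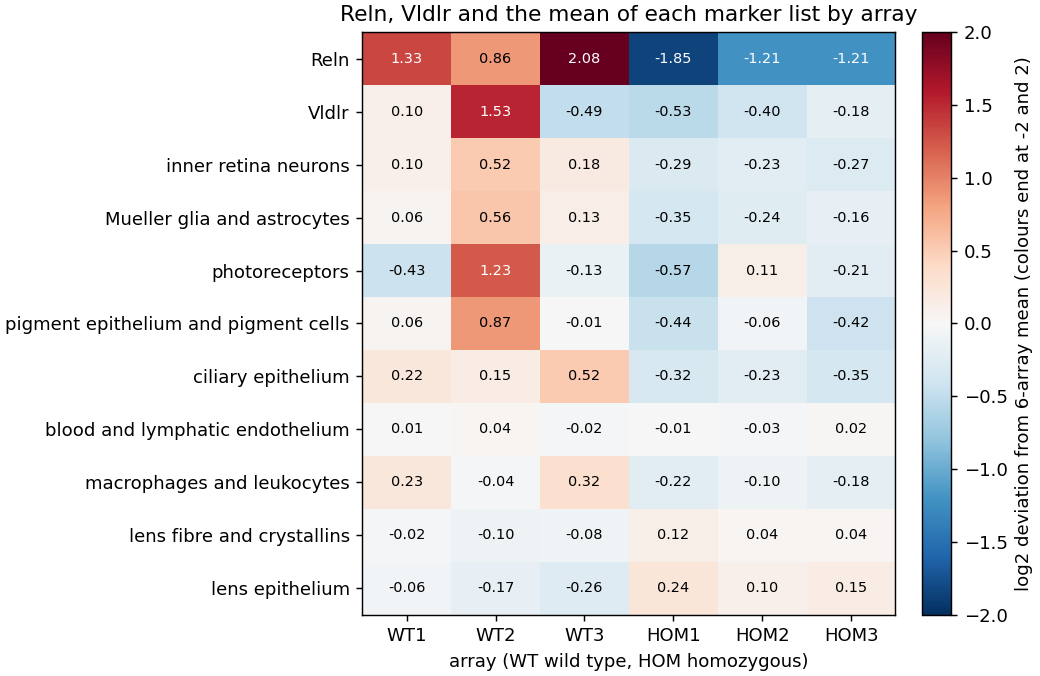
Log2 deviation from the 6-array mean of Reln, of the brightest Vldlr probe and of the mean over each marker list, per array, written in each cell and coloured from -2 (blue) to 2 (red). Ciliary epithelium markers are highest on wild type replicate 3, where Reln is highest, and photoreceptor markers on wild type replicate 2 (1.23), where Vldlr is highest. Inner retina, glial and pigment cell markers are also highest on wild type replicate 2 (0.52, 0.56 and 0.87).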

How the data were processed

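Total RNA was turned into biotin-labelled cRNA, per the labels' protocols, and hybridised to Illumina BeadChips, 1 array for each of the 6 mice. The authors' deposited signal is a linear intensity per probe, deposited as non-normalized, beside a detection p-value for each probe on each array, per the file headers. Undetected probes lie well above 0 in it, so background had not been subtracted. A second deposited table holds processed intensity on a linear scale with values below 0 and array medians of 4.39, 4.41, 4.4, 4.4, 4.4 and 4.4 (wild type, then homozygous), and how it was normalized is unknown here. The submitters' processing notes name GenomeStudio 2011.1.

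In limma 3.58.1 (R 4.3.3), normexp background correction (nec, negative controls inferred from detection p-values) was run with an offset of 16, arrays were quantile normalized, and log2 was taken. The offset pulls differences of dim probes toward 0. The test took the 8618 of 25697 probes detected (p-value under 0.05) in 3 or more of the 6 samples, covering 6430 named genes, each represented by its brightest tested probe. Genotype was tested by lmFit and eBayes with an intensity trend, two-sided, with Benjamini-Hochberg adjustment over all tested probes, and a gene passed at an adjusted p under 0.05. The fit was tested on simulated data. Precision is limited by having 3 arrays per group.

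Symbols came from the platform annotation, updated through gene identifiers (RefSeq, GRCm38.p6). Summed marker levels add normalized linear values less the offset over the brightest probe of each listed gene. The members and lists were chosen with earlier results of these data known. Named genes are the members, the 2 genes of smallest p in each pathway list or branch, up to 4 passing genes per marker list, and the 10 most and 3 least Reln-like genes. Nectin3, Wfdc1, Atp1b2, Dkk3 and Pdpn were chosen after their values were seen. Alternatives varied the background correction, offset, scaling, filter, covariates, single arrays and the probe taken for a gene, and also used the processed table, floored at 16.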

Additional observations from a re-analysis of the deposited data

How the results depend on the processing

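The Reln difference was below 0 in all 16 alternative settings, at -3.47 to -1.58, and moved by more than the spread between replicates in 3: -1.58 where background was not corrected, -1.98 at the offset of 50, and -3.47 in the authors' processed values, where homozygous replicate 1 sits at the floor. In that last setting 0 of 6430 genes passed in limma (573 had an unadjusted p under 0.05), Reln among those that did not; the cause was not tested. On their brightest probes, Vldlr stayed below 0 at -1.18 to -0.17, the last without wild type replicate 2, and Dab1 at -0.45 to -0.04. Dab1 probe ILMN_2601072 was instead above 0 in every setting where it was fitted, at 0.08 to 0.47. Dab1 probe ILMN_1248822 was at 0.09 with median scaling, and Vldlr probe ILMN_1218264 at -0.07 without wild type replicate 2. The count of passing receptor ligands and regulators, 0 as reported, was 1 (Apoe) with no filter on dim probes and 1 with the replicate block, and 0 to 1 when single arrays were left out. The counts of the other 4 pathway lists were 0 in every setting. With the replicate number as a block, Reln was at -2.84 (SE 0.22) and 102 genes passed in place of 28. Over all genes, 17 passed without background correction, 17 with sex as a covariate, 18 with the larger offset and 16 with no trend in the variance. There were 72 when wild type replicate 1 was left out and 9 to 32 without another single array. The sex covariate was the labelled sex, which is at odds with Xist and Eif2s3y on wild type replicate 3, so it may not adjust for sex. Same-numbered samples had deviations correlated at 0.204, 0.186 and -0.03, so the numbers were not taken as pairs, and not every sample correlated best with its own number. Most of these values lie close to background, which limits Dab1, Nrp1 and the homozygous Reln values.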
